A study of Mus musculus with 12 samples.

Results

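Toll-like receptors and the proteins that serve them on the cell surface were followed in blood progenitors of newborn mice that carry a mutated PU.1. The genes were 6 receptors (Tlr1, Tlr2, Tlr3, Tlr4, Tlr7 and Tlr9), the receptor-like protein Cd180, its partner Ly86 (MD-1), the Tlr4 partner Ly96 (MD-2) and the lipopolysaccharide carrier Cd14. They were taken by name, as every probe set that the platform annotation gives exactly 1 of these 10 symbols, out of 18193 genes with such a probe set. They had 16 probe sets among the 45037 tested. Each gene is described by its leading probe set, the one with the highest mean over the 12 arrays, and the other 6 probe sets serve as checks.

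KI mice were homozygous for PU.1 Q202L, a point mutation knocked into the gene itself (Spi1) and therefore present in every cell, and WT mice were the controls. RNA from sorted liver cells was hybridized to 1 Affymetrix MG430 v2 array per sample, with 3 arrays each for KI ST-HSC (short-term hematopoietic stem cells), WT ST-HSC, KI GMP (granulocyte-macrophage progenitors) and WT GMP. The labels give strain C57Bl/6 and newborn age for all groups, whereas the methods of the study name a mixed background and fetal liver, and say that the KI cells of the GMP gate stained less strongly for CD34, hence the name GMP-like. The sorted ST-HSC were lin- Sca-1+ c-kit+ CD150- CD48+ by the sample labels but CD48- by the study's text, and the GMP were lin- c-kit+ without Sca-1, with CD34+ and FcgRII/IIIhi staining. The labels do not name a founder line. Nothing says that the 3 samples of a group came from separate animals, so the spread behind the p-values is that of these samples. Within the KI groups it may be technical only. In each WT group 1 sample differed widely from the others in Xist, an RNA of the X chromosome described below. All KI samples had the low Xist level of these WT samples, so genotype and Xist level are partly confounded. In bulk RNA, fewer cells of a type and less RNA per cell cannot be told apart.

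Toll-like receptors recognize conserved parts of microbes. Receptors on the cell surface bind lipids, proteins and cell wall components, and those in endosomes bind nucleic acids. Most signal through Myd88 to NF-kappaB, while Tlr3 uses the adapter Ticam1 (TRIF) and Tlr4 uses both. Cd180 resembles Tlr4 outside the cell but lacks its signalling domain, and it reaches the surface together with Ly86, as Tlr4 does with Ly96. PU.1 is a transcription factor of myeloid and B-lymphoid cells, and the study asked what its contact with the AP-1 protein c-Jun contributes.

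The letters of a PU.1 core (GAGGAA) and of an AP-1 site (TGANTCA) were therefore looked for, on both strands, in the 250 bases before the transcription starts that RefSeq gives on GRCm38.p6. Windows of 6 of the 10 genes were searched (Tlr1, Tlr2, Tlr3, Tlr9, Cd180 and Ly86). Tlr1 and Cd180 had 2 starts each, which made 8 windows. No window of Tlr4, Tlr7, Ly96 or Cd14 was searched, so whether these genes have a motif there was not tested. The search for the 10 genes left out 1 chromosome, which the count over all genes below kept. The windows of Ly86 (chr13:37345095-37345344, plus strand) and of Tlr3 (chr8:45410381-45410630, minus strand) are shown because these had the largest differences of the 10 genes in ST-HSC, and that of Tlr9 (chr9:106222348-106222597, plus strand) because it was the only one of the 8 windows with both motifs. Each is written 5′ to 3′ toward the start, and capitals mark a motif.
Ly86: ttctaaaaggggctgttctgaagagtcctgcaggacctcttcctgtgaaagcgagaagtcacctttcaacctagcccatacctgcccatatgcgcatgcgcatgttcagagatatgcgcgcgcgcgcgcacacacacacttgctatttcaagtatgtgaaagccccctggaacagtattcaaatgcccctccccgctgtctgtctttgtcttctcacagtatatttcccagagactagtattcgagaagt
Tlr3: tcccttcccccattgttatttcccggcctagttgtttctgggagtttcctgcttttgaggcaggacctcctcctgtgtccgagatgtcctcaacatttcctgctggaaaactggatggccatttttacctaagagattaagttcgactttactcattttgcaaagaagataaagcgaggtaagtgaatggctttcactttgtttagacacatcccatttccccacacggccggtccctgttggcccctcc
Tlr9: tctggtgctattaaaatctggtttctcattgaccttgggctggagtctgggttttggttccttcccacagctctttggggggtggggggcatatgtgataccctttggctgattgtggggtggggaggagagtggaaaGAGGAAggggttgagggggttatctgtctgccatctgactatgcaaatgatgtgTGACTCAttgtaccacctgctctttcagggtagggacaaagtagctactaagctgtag
In the Tlr9 window the PU.1 core began 112 bases and the AP-1 site, read as TGACTCA, 58 bases before the start. The window of 1 Tlr1 start held a PU.1 core 23 bases before it, and the other 6 windows, those of Ly86, Tlr3, Tlr2, both of Cd180 and the other of Tlr1, held neither motif. Of 32851 such windows of all genes, 23.3% held GAGGAA, 6.75% held TGANTCA and 1.55% held both. A window without a match says only that these letters are not in it.

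Spi1, which encodes PU.1, was measured by a probe set that does not distinguish the mutant sequence. Its log2 RMA values (the unit of all levels here, a normalized array signal on a log2 scale) were 8.08, 8.18 and 8.16 in KI ST-HSC and 8.03, 7.89 and 7.98 in WT ST-HSC. In the GMP gate they were 8.28, 8.95 and 8.71 in KI and 7.95, 8.36 and 8.47 in WT. The differences, 0.17 in ST-HSC and 0.39 in GMP, did not pass the test (limma adjusted p = 0.798 and 0.384), so the genotype labels could not be checked by this gene. Xist, an RNA made from the silenced X, lay between 2.98 and 3.78 in all 6 KI arrays and in both WT arrays numbered 2 (3.70 in ST-HSC and 3.47 in GMP), and between 10.67 and 11.74 in the other 4 WT arrays. Replicates of a group correlated at 0.963 to 0.990 over all probe sets. The array medians were 5.00 to 5.10 in ST-HSC and 4.70 to 4.79 in GMP, so levels are given side by side, and no level was tested between the populations.

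In ST-HSC, 3 of the 10 genes fell in KI cells (Ly86, Tlr3 and Cd180), none rose and 7 did not pass the test, against a background of 1.68% of all genes lower and 1.33% higher at an adjusted p under 0.05. All 10 differences were negative in sign, with a median of -1.36 on the log2 scale beside -0.02 over all genes. The KI arrays lay below every WT array for 5 genes, the 3 that fell and Tlr2 and Tlr4, where 11.2% of all genes showed such a separation. In GMP, 2 of the 10 fell in KI cells (Ly86 and Tlr4), none rose and 8 did not pass, against a background of 1.4% lower and 1.19% higher. Of these, 8 differences were negative, with a median of -1.24 beside -0.03 over all genes, and the same 5 genes had all KI arrays below all WT arrays, where 11.1% of all genes did. Differences are KI minus WT in limma with Benjamini-Hochberg adjustment over all probe sets. An exact permutation test of 3 arrays against 3 cannot give a p below 0.1.

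**Figure D1:**
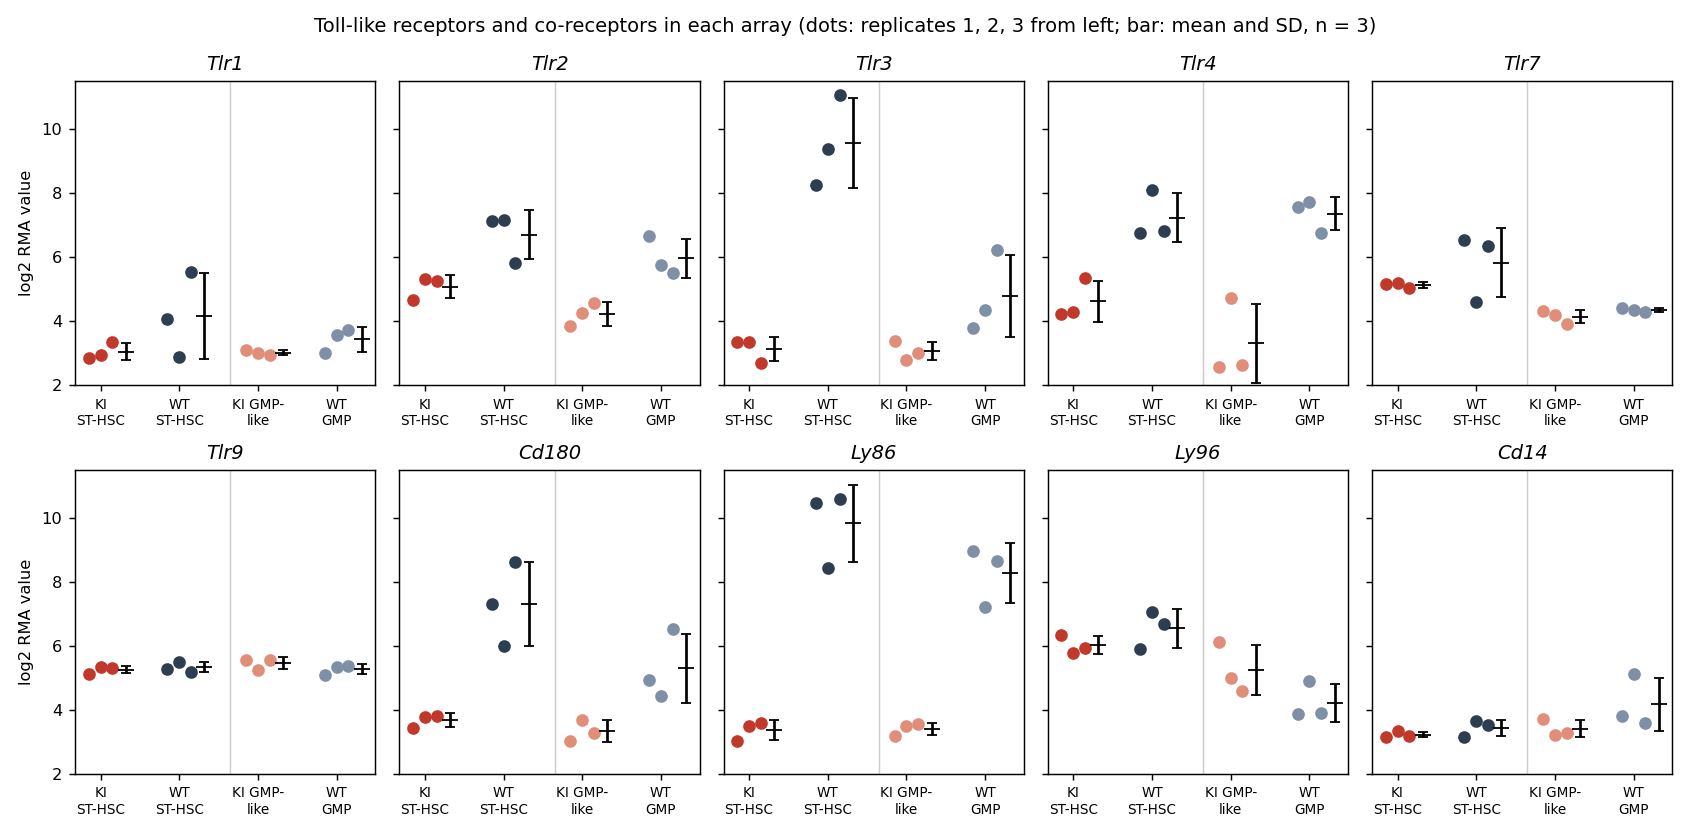
Log2 RMA values (vertical axis) of the leading probe set of each of the 10 genes in every array, with KI left of WT in ST-HSC and in GMP, a dot per array and bars for the mean and SD (n = 3). Ly86 stood at 3.02 to 3.58 in KI ST-HSC and 8.42 to 10.60 in WT ST-HSC, with no overlap, while the groups of Tlr9 overlapped in both populations.

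Ly86 encodes the secreted protein that binds Cd180 and brings it to the cell surface. It had values of 3.02, 3.50 and 3.58 in KI ST-HSC and 10.45, 8.42 and 10.60 in WT ST-HSC (mean 3.37 ± 0.30 and 9.82 ± 1.22, SD, n = 3 each). The KI arrays lay together near the lower quartile of all probe sets on those arrays (3.51 to 3.63), and the lowest WT array, replicate 2, was still far above them. The difference was -6.46 on the log2 scale (SE 0.57, 95% CI -7.72 to -5.20, adjusted p = 0.000286), a level 87.8-fold lower in KI. In GMP, Ly86 had 3.19, 3.48 and 3.55 in KI and 8.97, 7.21 and 8.64 in WT. KI and WT were again widely separated, and WT replicate 2 was again the lowest WT array. The difference there was -4.87 (SE 0.57, 95% CI -6.13 to -3.61, adjusted p = 0.00199), or 29.2-fold lower in KI.

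Cd180, the receptor-like partner of Ly86, is known from B cells, where it modulates the response to lipopolysaccharide. Its values were 3.43, 3.78 and 3.82 in KI ST-HSC and 7.31, 6.00 and 8.61 in WT ST-HSC. The KI arrays were alike and low, the WT arrays were spread widely above them, and WT replicate 2 was the lowest WT array. Cd180 fell by 3.63 on the log2 scale (SE 0.63, 95% CI -5.02 to -2.25, adjusted p = 0.013), which is 12.4-fold. Leaving out KI ST-HSC replicate 1 or replicate 2 ended this call (adjusted p = 0.0554 and 0.0583), as did adding the Xist level to the model (-2.51, adjusted p = 0.0504). Without the WT arrays of high Xist, an alternative chosen after seeing the data, it was -2.33. That fit leaves 1 WT array per population and holds no spread among WT arrays, so only its differences are given. In GMP the values were 3.03, 3.69 and 3.28 in KI and 4.94, 4.44 and 6.52 in WT. The groups did not overlap, and the difference of -1.96 (95% CI -3.35 to -0.57) did not pass the test (adjusted p = 0.157).

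Tlr4 is the receptor for lipopolysaccharide of Gram-negative bacteria. In GMP its values were 2.55, 4.72 and 2.64 in KI and 7.57, 7.72 and 6.76 in WT. KI replicate 2 stood above the other KI arrays and below all WT arrays. Tlr4 fell in KI GMP by 4.05 (SE 0.60, 95% CI -5.38 to -2.72, adjusted p = 0.00749), or 16.5-fold. A fit on the 6 GMP arrays alone did not call it (adjusted p = 0.068). Without the 4 WT arrays of high Xist the difference was -4.41.

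In ST-HSC, Tlr4 had 4.23, 4.28 and 5.35 in KI and 6.75, 8.11 and 6.81 in WT. The groups were separated, and the difference of -2.61 (95% CI -3.94 to -1.28) lay just outside the threshold (adjusted p = 0.0552). It passed in 5 of the alternatives, among them the fit without KI GMP replicate 2 (adjusted p = 0.0153) and the mean over all Tlr4 probe sets (-1.47, adjusted p = 0.00346). Of the 3 other Tlr4 probe sets, 1442827_at fell in both populations, by 2.31 in ST-HSC and by 1.78 in GMP (adjusted p = 0.0104 and 0.0433). The probe set 1418163_at had differences of -0.97 in ST-HSC and -2.63 in GMP and passed in neither (adjusted p = 0.658 and 0.0951), and 1430695_at, which was low on every array, differed by 0.005 in ST-HSC and -0.13 in GMP.

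Ly96 holds the lipid part of lipopolysaccharide for Tlr4, and Cd14 hands the molecule over to them. Ly96 had values of 6.33, 5.79 and 5.92 in KI ST-HSC and 5.89, 7.06 and 6.68 in WT ST-HSC, and 6.11, 5.00 and 4.60 in KI GMP and 3.86, 4.91 and 3.90 in WT GMP. The groups overlapped in both populations, with the KI mean below the WT mean in ST-HSC and above it in GMP. Neither difference passed (-0.53, 95% CI -1.49 to 0.43, adjusted p = 0.7, and 1.01, 95% CI 0.06 to 1.97, adjusted p = 0.313). For Cd14 the values were 3.16, 3.33 and 3.19 in KI ST-HSC and 3.16, 3.64 and 3.52 in WT ST-HSC. They were all low and overlapped, with a difference of -0.22 (95% CI -0.96 to 0.53, adjusted p = 0.873). In GMP, Cd14 had 3.72, 3.22 and 3.29 in KI and 3.81, 5.11 and 3.58 in WT, where WT replicate 2 alone stood well above the rest. That difference was -0.76 (95% CI -1.5 to -0.01, adjusted p = 0.339). The value of Cd14 in GMP depended on single WT arrays. It was -0.29 without WT GMP replicate 2 (adjusted p = 0.632). Without the WT arrays of high Xist, which leaves WT replicate 2 alone, it was -1.70. In that same fit the difference of Ly96 in GMP was 0.33.

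Tlr2 recognizes bacterial lipoproteins, in pairs with Tlr1 or with Tlr6. It had 4.67, 5.32 and 5.24 in KI ST-HSC and 7.13, 7.15 and 5.80 in WT ST-HSC. All KI arrays were below all WT arrays, of which replicate 3 came closest, and the difference of -1.62 (95% CI -2.52 to -0.72) did not pass (adjusted p = 0.079). Without WT ST-HSC replicate 3 it was -2.06 and passed (adjusted p = 0.0202). In GMP, Tlr2 had 3.84, 4.24 and 4.58 in KI and 6.66, 5.75 and 5.5 in WT. The groups were separated there too, by a difference of -1.75 (95% CI -2.65 to -0.85), which missed the threshold by little (adjusted p = 0.0567) and passed under 7 of the alternatives.

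Tlr1 had 2.85, 2.95 and 3.34 in KI ST-HSC and 4.06, 2.87 and 5.53 in WT ST-HSC. WT replicate 2 lay among the KI arrays and the other WT arrays lay above them, and the difference of -1.11 did not pass (95% CI -2.24 to 0.02, adjusted p = 0.394). It was -1.75 without WT replicate 2 (adjusted p = 0.052) and -0.42 without WT replicate 3 (adjusted p = 0.731). Without the WT arrays of high Xist, which leaves WT replicate 2 alone, it was 0.17, with the sign turned. In GMP, Tlr1 had 3.10, 3.02 and 2.92 in KI and 2.99, 3.55 and 3.73 in WT, low values that overlapped (difference -0.41, adjusted p = 0.817).

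**Figure D2:**
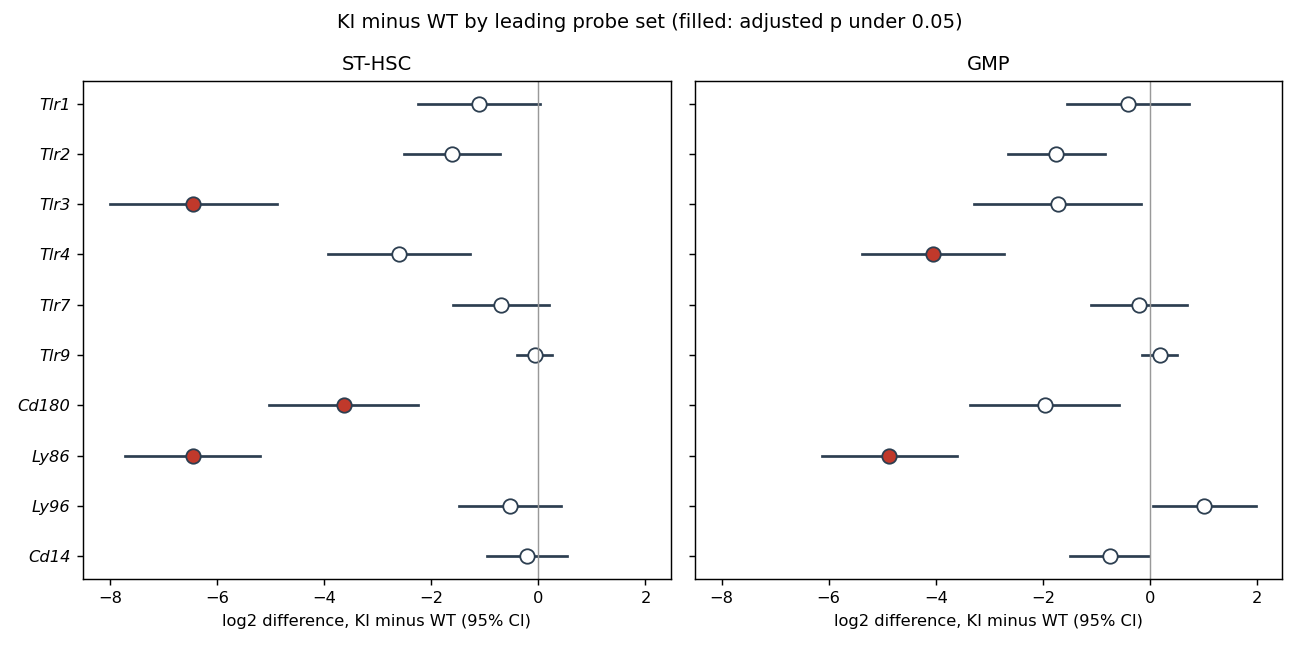
Log2 differences KI minus WT (horizontal axis) with 95% confidence intervals for the leading probe set of each gene in ST-HSC and in GMP, filled where the adjusted p was under 0.05. Ly86 (-6.46 and -4.87) is filled in both, Tlr3 (-6.44) and Cd180 (-3.63) in ST-HSC, and Tlr4 (-4.05) in GMP. The difference between populations passed the test for none of them.

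Among the endosomal receptors, Tlr3 binds double-stranded RNA. Its leading probe set, 1422782_s_at, had 3.34, 3.33 and 2.70 in KI ST-HSC and 8.26, 9.38 and 11.06 in WT ST-HSC (mean 3.12 ± 0.37 and 9.57 ± 1.41, SD, n = 3 each). The KI arrays were all low, and every WT array exceeded them by a wide margin. Tlr3 fell by 6.44 (SE 0.70, 95% CI -8.01 to -4.89, adjusted p = 0.00111), or 87.1-fold. In GMP it had 3.37, 2.80 and 3.01 in KI and 3.78, 4.33 and 6.22 in WT. All WT arrays were higher, replicate 3 by far the most, and the difference of -1.72 did not pass (95% CI -3.28 to -0.16, adjusted p = 0.288).

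The other Tlr3 probe set, 1422781_at, gave much smaller values, 2.79, 2.69 and 2.63 in KI ST-HSC and 3.50, 2.89 and 5.95 in WT ST-HSC. The groups kept the same order without overlap, but the difference of -1.41 did not pass (adjusted p = 0.346), and in GMP it was -0.24 (adjusted p = 0.925). The call of Tlr3 therefore rests on the leading probe set, whose suffix marks probes that can also match other transcripts.

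Tlr7 recognizes single-stranded RNA and is encoded on the X chromosome. Its leading probe set had 5.15, 5.20 and 5.02 in KI ST-HSC and 6.52, 4.58 and 6.36 in WT ST-HSC. WT replicate 2, the WT array of low Xist, was the lowest of all 6, and the other 2 WT arrays were the highest. The difference was -0.70 (95% CI -1.59 to 0.20, adjusted p = 0.536). Without WT replicate 2 it was -1.32 and passed (adjusted p = 0.00234), and with the Xist level in the model it was -0.03 (adjusted p = 0.984). Without the WT arrays of high Xist, which leaves WT replicate 2 alone, its sign turned (0.54). Since all KI arrays had low Xist, what the mutation and what the Xist difference contributed to Tlr7 cannot be told apart. Its check probe set 1422010_at had 3.23, 3.80 and 3.59 in KI ST-HSC and 5.68, 4.58 and 5.93 in WT ST-HSC, which did not overlap, and it fell by 1.85 (adjusted p = 0.0154), while 1419848_x_at differed by -1.21 (adjusted p = 0.295). In GMP the leading probe set had 4.32, 4.18 and 3.91 in KI and 4.40, 4.34 and 4.3 in WT, a difference of -0.21 (95% CI -1.10 to 0.69) that did not pass. The 2 checks differed there by -0.01 and 0.02.

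Tlr9, the receptor for unmethylated CpG DNA, had 5.13, 5.34 and 5.30 in KI ST-HSC and 5.28, 5.5 and 5.19 in WT ST-HSC, and 5.56, 5.24 and 5.55 in KI GMP and 5.09, 5.34 and 5.37 in WT GMP. The groups overlapped in both populations. The differences were -0.07 (95% CI -0.39 to 0.26) in ST-HSC and 0.18 (95% CI -0.14 to 0.51) in GMP, the narrowest intervals of the 10 genes, and neither passed (adjusted p = 0.916 and 0.670). Tlr9 varied little over the 12 arrays (SD 0.15), and whether its single probe set follows its RNA was not tested. A relation between these values and the motifs of its window was not tested either.

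**Figure D3:**
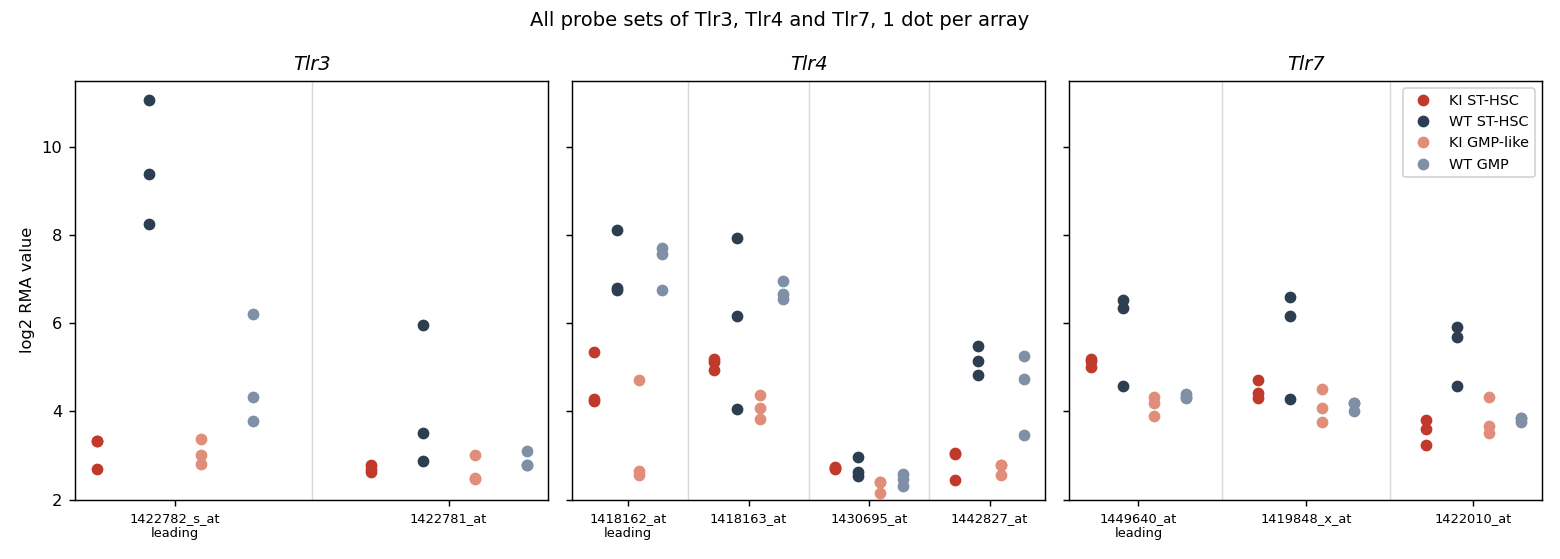
Log2 RMA values (vertical axis) of every probe set of Tlr3, Tlr4 and Tlr7, the genes with more than 1, with a dot per array and KI left of WT in each population. The leading Tlr3 probe set separates KI ST-HSC (2.70 to 3.34) from WT ST-HSC (8.26 to 11.06) far more than the other (2.63 to 2.79 and 2.89 to 5.95).

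Over all 16 probe sets, 5 fell in KI ST-HSC, against 1.19% of all probe sets lower and 1.02% higher, 1 each of Ly86, Tlr3, Cd180, Tlr4 and Tlr7. In KI GMP 3 fell, against 1.07% lower and 1.05% higher, from Ly86 and Tlr4. No probe set of these genes rose in either population.

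Whether the KI minus WT difference itself differed between the populations was tested as GMP minus ST-HSC in the same fit. None of the 10 genes passed (background 0.022% lower and 0.0275% higher, and 0.0289% and 0.02% over all probe sets), and 2 had an unadjusted p under 0.05. For Tlr3 the difference of the differences was 4.72 (SE 0.997, 95% CI 2.52 to 6.93, adjusted p = 0.16), and for Ly96 it was 1.54 (95% CI 0.19 to 2.90, adjusted p = 0.558). Those of Ly86 (1.59), Cd180 (1.67) and Tlr4 (-1.44) had adjusted p values of 0.696, 0.707 and 0.746. The calls that appear in one population and not in the other are thus not shown to differ between them. Without the 4 WT arrays of high Xist, which leaves 1 WT array per population, the value of Tlr3 was 4.98.

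The WT arrays numbered 2 differed from the other WT arrays for several of the genes. In WT ST-HSC, replicate 2 was below the mean of replicates 1 and 3 by 2.10 for Ly86, 1.96 for Cd180, 1.92 for Tlr1 and 1.86 for Tlr7, and above it by 1.33 for Tlr4. In WT GMP it was below by 1.60 for Ly86 and 1.28 for Cd180, and above by 1.41 for Cd14 and 1.03 for Ly96. The fit without the WT arrays of high Xist sets the KI arrays against these single WT arrays. In it the differences of Ly86 were -5.05 in ST-HSC and -3.80 in GMP, and that of Tlr3 was -6.26 in ST-HSC. With the Xist level as a covariate over all 12 arrays, the differences were -5.18 in ST-HSC and -3.61 in GMP for Ly86, -6.14 in ST-HSC for Tlr3 and -4.68 in GMP for Tlr4, and all passed (adjusted p = 4.25e-05, 0.000251, 0.0116 and 0.0149).

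**Figure D4:**
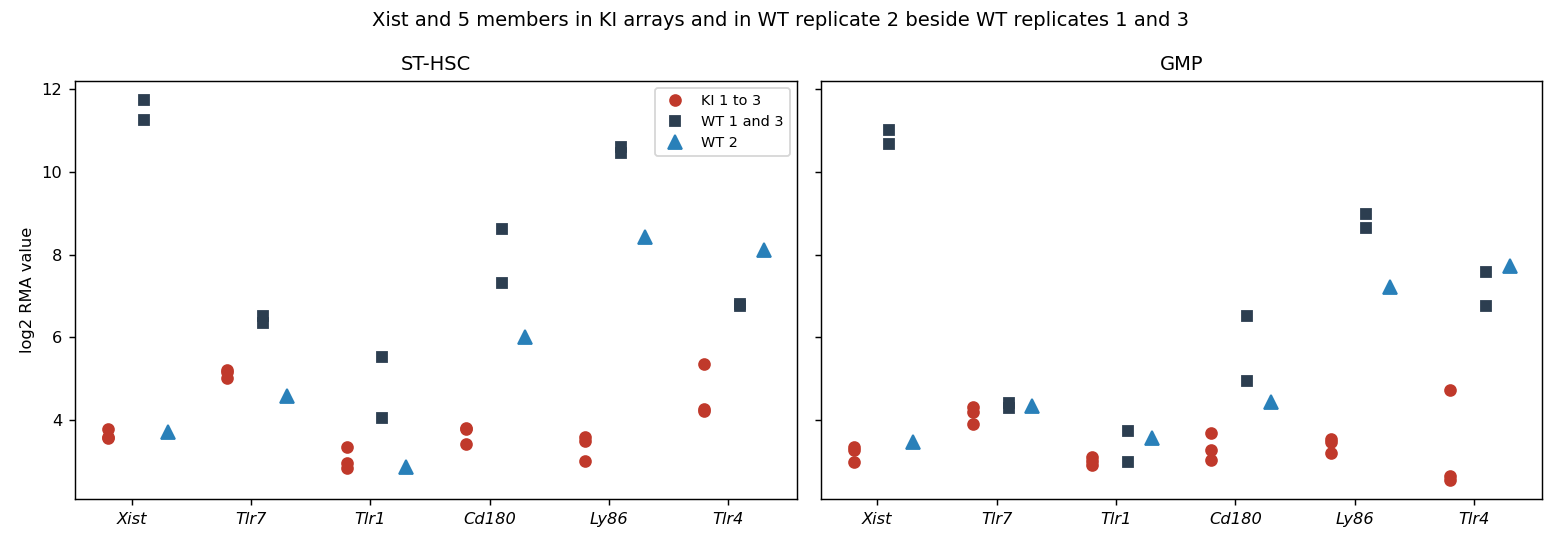
Log2 RMA values (vertical axis) of Xist and of 5 of the genes in ST-HSC and in GMP, with the KI arrays left of the WT arrays and WT replicate 2 marked apart from WT replicates 1 and 3. Xist lay at 3.70 in WT ST-HSC replicate 2 and above 11 in the other WT ST-HSC arrays, and Tlr7 was lower in replicate 2 (4.58) than in them (6.52 and 6.36).

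Marker genes of several cell types were read from the same arrays. Some sums were lower in KI, some were higher and some overlapped. The summed signal of 9 monocyte and macrophage markers (on a log2 scale) was 7.98 to 8.42 in KI ST-HSC and 12.25 to 12.96 in WT ST-HSC, and 8.55 to 9.81 in KI GMP and 11.18 to 11.82 in WT GMP, with 4 and 2 of the 9 markers lower. Of 7 B-lineage markers, 3 fell in KI ST-HSC (sum 7.75 to 7.81, against 10.08 to 10.98 in WT) and 1 in KI GMP (7.76 to 8.58, against 9.22 to 9.84 in WT). Of 6 dendritic cell markers, 1 fell in KI ST-HSC (8.29 to 8.55, against 9.04 to 10.71 in WT) and none in KI GMP (7.61 to 8.13, against 8.52 to 9.04 in WT). None of 7 markers of liver macrophages passed in either population, and their sum was low throughout, 6.63 to 6.74 in KI ST-HSC and 7.04 to 7.34 in WT ST-HSC, and 6.37 to 6.54 in KI GMP and 6.71 to 7.92 in WT GMP. The sum of 4 hepatocyte markers was 7.85 to 7.89 in KI ST-HSC and 8.67 to 9.78 in WT ST-HSC, and it overlapped in GMP (6.83 to 7.93 in KI and 7.67 to 9.09 in WT), with 1 of the 4, Afp, lower in each population. The sum of 4 erythroid markers was 9.36 to 9.65 in KI ST-HSC and 8.01 to 8.64 in WT ST-HSC, and 8.71 to 9.41 in KI GMP and 6.77 to 7.79 in WT GMP. None of these 4 passed, and in ST-HSC Klf1 and Epor had positive differences and Slc4a1 and Hba-a1 negative ones. The sum of 4 endothelial markers was 9.08 to 9.41 in KI ST-HSC and 7.47 to 8.72 in WT ST-HSC, and 9.56 to 10.38 in KI GMP and 8.18 to 8.63 in WT GMP. Of these only Pecam1 passed, in GMP (1.79, adjusted p = 0.0432). For 7 granulocyte markers the sums overlapped in both populations, and 1, Ltf, fell in KI GMP (-1.43, adjusted p = 0.0127). The 6 genes of the sort gates summed to 12.79 to 12.92 in KI ST-HSC and 12.73 to 12.78 in WT ST-HSC, and to 12.45 to 12.80 in KI GMP and 12.66 to 12.78 in WT GMP, but members of this list moved in opposite directions. In KI ST-HSC, Cd34 fell by 1.41 (adjusted p = 0.00103), while Slamf1, which encodes CD150, rose by 1.92 (adjusted p = 0.00132) and Fcgr3 rose by 1.68 (adjusted p = 0.00165). Cd48 had means of 11.84 in KI ST-HSC and 11.68 in WT ST-HSC (adjusted p = 0.742). Its means in GMP were 10.98 in KI and 10.99 in WT. Which CD48 staining the sorted ST-HSC had was not tested. In KI GMP, Cd34 fell by 2.87 (adjusted p = 6.98e-06) and the other 5 did not pass. The part of other cell types, or of cells that differ within the gates, in the differences of the receptors was not tested.

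The genes around the receptors were read from lists of the pathway. Among 5 other Toll-like receptors, Tlr13, a receptor for bacterial ribosomal RNA, fell in KI ST-HSC (mean 3.42 in KI and 4.92 in WT, difference -1.49, adjusted p = 0.0331), and Tlr5, Tlr6, Tlr8 and Tlr12 did not pass, with differences of -0.18 to 0.20. Tlr13, like Tlr7, is encoded on the X chromosome, and what the Xist difference contributed to its fall was not tested. Its KI mean lay below the lower quartile of all probe sets on the KI ST-HSC arrays (3.51 to 3.63). None of the 5 passed in GMP. The median of this list was 0.16 in ST-HSC and -0.15 in GMP.

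Of 13 genes of receptor folding, trafficking and ligand delivery, 3 fell and 1 rose in KI ST-HSC, with a median of -0.27 (to be read beside -0.02 over all genes). Lgmn, an endosomal protease, differed by -2.56 (adjusted p = 0.00126). Cnpy3, a chaperone that many Toll-like receptors need to leave the endoplasmic reticulum, differed by -0.86 (adjusted p = 0.00851). Cd36, a lipid receptor that assists Tlr2, differed by -4.22 (adjusted p = 0.0104). Lbp, the lipopolysaccharide binding protein that loads Cd14, rose by 1.33 (adjusted p = 0.0429). None of the 13 passed in GMP, where the median was -0.26.

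Of 18 adapters and receptor-proximal kinases, only Btk, a kinase downstream of several receptors, passed. It fell in KI ST-HSC (6.48 in KI and 8.45 in WT, difference -1.96, adjusted p = 0.0158) and in KI GMP (6.63 in KI and 8.26 in WT, difference -1.63, adjusted p = 0.0432). The other 17, Myd88 and Ticam1 among them, did not pass in either population, and the medians were -0.11 and -0.10. Btk, like Tlr7, is encoded on the X chromosome.

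Of 20 genes of the NF-kappaB and interferon regulatory factor branch, Irf8 fell in both populations, with differences of -6.30 in ST-HSC and -3.18 in GMP (adjusted p = 3.66e-05 and 0.00291). Irf8 is a transcription factor of monocytes, dendritic cells and B cells. In ST-HSC, Irf7, which drives interferon genes downstream of the endosomal receptors, fell by 2.09 (adjusted p = 0.00302), and Rela, the p65 subunit of NF-kappaB, rose by 0.85 (adjusted p = 0.0391). The medians were -0.30 in ST-HSC and -0.03 in GMP.

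None of 11 inhibitors of the signalling passed in either population. Among 15 other pattern recognition receptors none passed in ST-HSC, where Clec4n, a receptor for fungal sugars, came closest (-1.28, adjusted p = 0.0528), and Cgas, the sensor of DNA in the cytosol, fell in KI GMP (-1.33, adjusted p = 0.00214). No gene of these lists passed the test of a difference between the populations.

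**Figure D5:**
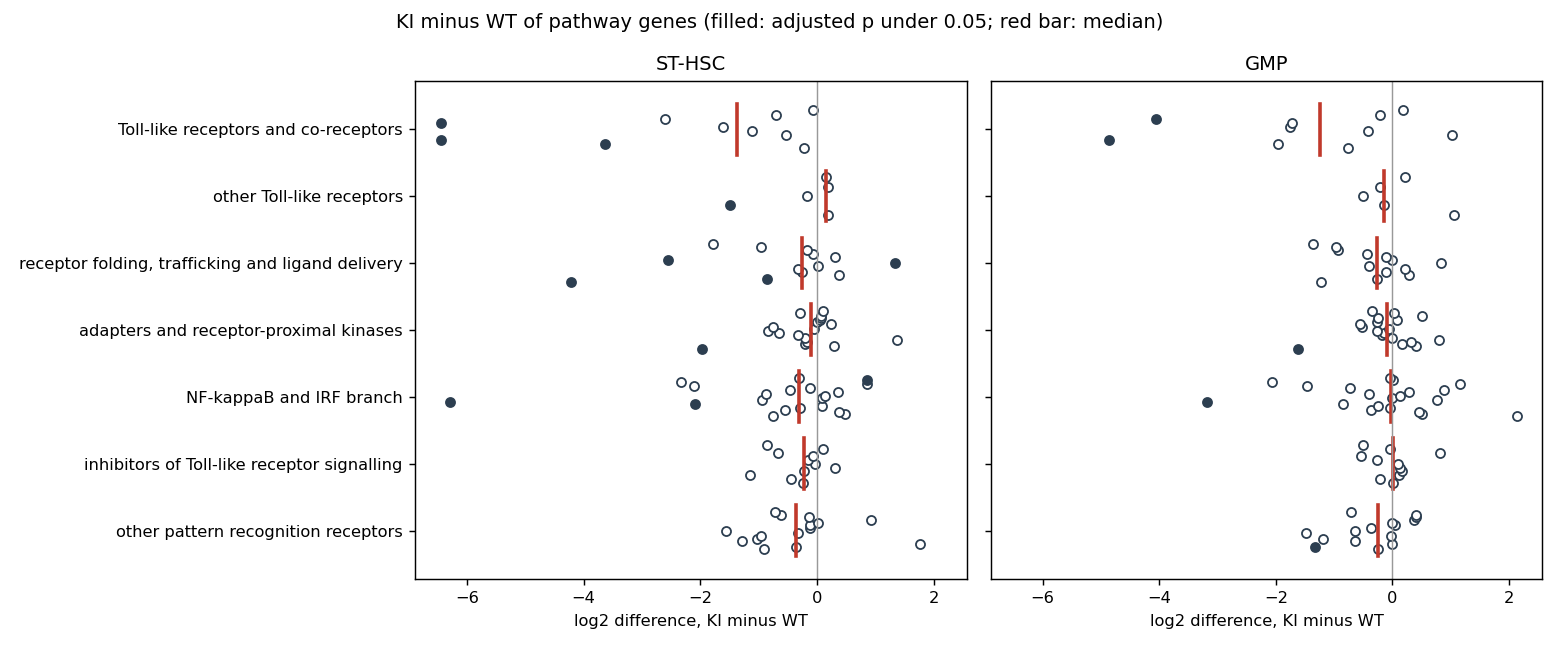
Log2 differences KI minus WT (horizontal axis) of the 10 receptors and co-receptors and of the 6 pathway lists in ST-HSC and in GMP, 1 dot for each gene and filled dots for those with an adjusted p under 0.05, with a bar at the list's median. The receptors and co-receptors had medians of -1.36 and -1.24, and the 6 lists lay between -0.36 and 0.16.

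The genes whose profile over the 12 arrays was most like that of a receptor were found by the root mean square difference of log2 values after each gene was centred on its own mean. For Ly86, which itself had an SD over the 12 arrays of 3.09, these were Mpeg1 (0.70), Ms4a6c (0.70) and Nckap1l (0.74). For Tlr3 they were H2-Eb1 (0.53), Cd74 (0.54) and Aif1 (0.63), and for Cd180 they were H2-Aa (0.56), Rab7b (0.58) and Pld4 (0.58). H2-Eb1, H2-Aa and Cd74 belong to antigen presentation by MHC class II, and Mpeg1 encodes a pore-forming protein of macrophages. For Tlr4 the nearest genes were Ncs1 (0.77), Slc25a12 (0.77) and Slc16a7 (0.80). All profiles share the same 12 arrays and the contrast between KI and WT.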

How the data were processed

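RNA of sorted cells was amplified linearly from 10 ng and hybridized to 12 arrays, 3 in each of 4 groups. The deposited values are log2 expression values, which the authors made by RMA (background correction, quantile normalization, probe summary); the sources used here give no version. Signals near background are compressed by RMA, so that folds of low genes are rough. Groups came from the sample titles. Probe sets were named from the platform annotation (34945 with 1 symbol, 932 with several, 9160 with none), and 64 control probe sets were left out.

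The log2 values entered limma 3.58.1 (R 4.3.3) as 4 group means (8 residual degrees of freedom, 2.52 prior), with Benjamini-Hochberg adjustment over 45037 probe sets and a threshold of 0.05. The SAM procedure named in the methods regroups samples and was not run. The named genes were all 10 members, pathway genes that passed or had the smallest p-values, and the 3 nearest profiles. The members and the lists were chosen with earlier results of these data known. The number of arrays limits the precision. The script was tested on simulated data. Each result was recomputed under those of 24 other settings that could give it, and under 1 added later. Sequences came from RefSeq.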

Additional observations from a re-analysis of the deposited data

How the results depend on the processing

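Over 709 values of the 10 genes under the alternatives, 680 stayed on their side of the threshold, 18 newly passed and 11 no longer passed. Of the 680, 669 kept their direction and 11 changed sign, none of which was called. These counts include the fit without the WT arrays of high Xist, chosen after seeing the data, which leaves 1 WT array per population. The number of the 10 genes lower in KI ST-HSC, 3 as reported, was 5 when each gene was averaged over its probe sets. It was 0 with a plain t-test of each probe set, which is not the SAM procedure that the study used for its arrays. The number lower in KI GMP, 2 as reported, was 1 in a fit of the 6 GMP arrays alone and 0 with that t-test. With single arrays left out it was 2 to 4 in ST-HSC and 2 to 3 in GMP. The number whose difference was higher in GMP than in ST-HSC, 0 as reported, stayed 0 with single arrays left out. Ly86 passed under every alternative but the t-test of each probe set (adjusted p = 0.137 in ST-HSC and 0.197 in GMP). Filters on low values removed Tlr1, Tlr7 and Cd14, and the stricter one also Tlr9.

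With the replicate number as a block, 3 of the 10 genes were lower in ST-HSC and 2 in GMP, and the block changed no call of these genes (Ly86 adjusted p = 0.00754 and 0.021, Tlr3 0.0158, Cd180 0.0461, Tlr4 in GMP 0.0282). The deviations of KI and WT samples with the same number correlated at 0.0343 to 0.0742 in ST-HSC, where pairs of unlike number lay at -0.0612 to 0.0157. In GMP they correlated at -0.0381 to -0.00398, beside -0.0292 to 0.0412 for pairs of unlike number. The WT array of low Xist had the same number in both populations. Whether samples with the same number share a source was not tested, and the test between populations treated all arrays as independent. Over all probe sets, the 538 lower and 458 higher in ST-HSC ranged over the alternatives from 6 to 796 and from 1 to 608, the 484 lower and 475 higher in GMP from 2 to 642 and from 0 to 548, and the 13 lower and 9 higher in the difference between populations from 0 to 40 and from 1 to 74. The lowest counts came from the t-test of each probe set, and for the difference between populations from the replicate block. The highest counts in ST-HSC and in the difference between populations came from the fit without the WT arrays of high Xist. That fit leaves 1 WT array per population. The causes were not tested.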

Other observations

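For the 6 genes whose nearest profiles the text has not given, the nearest was Pygm for Tlr1 (0.26), Macir for Tlr2 (0.42), AI661453 for Tlr7, Srcin1 for Tlr9 (0.06), Llgl1 for Ly96 (0.35) and Penk for Cd14, as the root mean square difference of centred log2 values over 12 arrays.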
